A study of Mus musculus with 4 samples.

Results

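The ERK pathway feedback genes described here are 10 genes chosen by symbol, namely *Dusp4*, *Dusp5*, *Dusp6*, *Spry1*, *Spry2*, *Spry4*, *Spred1*, *Etv4*, *Etv5* and *Phlda1*. Each matched 1 Ensembl identifier among the 39179 genes counted per library. The RNA came from B16F1, a mouse melanoma cell line, in 2 groups of 2 libraries that carry the replicate numbers 1 and 3. Parental control cells are B16F1 cells in standard culture on rigid plastic. TRCs (tumor repopulating cells) are cells of the same line that grew from single cells into spheroids in soft 3D fibrin gels of 90 Pa stiffness and were isolated on day 5. The labels name no genotype and no agent for either group. The gel both selects cells and changes their surroundings, so survival of a subset and growth in the gel cannot be told apart in this comparison, and in bulk RNA fewer cells that express a gene and less RNA per cell cannot be told apart either. The labels do not say whether the libraries of a group came from separate cultures, so the p-values measure the spread between these libraries, which may be technical.

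The ERK pathway carries signals from receptor tyrosine kinases through RAS, RAF and MEK to the kinase ERK, and it is a central growth pathway of the melanocyte lineage and of melanoma. Active ERK induces genes whose products act back on the pathway. The DUSP phosphatases remove the activating phosphates of ERK, the Sprouty and SPRED proteins act upstream at the level of RAS and RAF, and the PEA3-type ETS factors ETV4 and ETV5 are transcriptional activators made in response to the pathway. The mRNAs of such genes are often read as ERK output. Phosphorylated ERK was not analysed here.

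Between 35948295 and 43511554 counts fell on genes per library, and the level that corresponds to 3 counts was between 0.0689 and 0.0835 CPM (counts scaled by library size). Between 15.2% and 25.2% of the alignments had several positions and were left uncounted, most in TRC replicate 3. The 7 melanocytic markers (*Mitf*, *Sox10*, *Pmel*, *Tyr*, *Tyrp1*, *Dct* and *Mlana*) were counted in all 4 libraries, with a summed level of 15712 to 18915 CPM in the parental cells and 23969 to 26669 CPM in TRCs, and 1 of the 7, *Dct*, was called higher in TRCs. Markers of leukocytes summed to between 1.71 and 4.97 CPM per library with 5 of 8 at 0 in every library, among them *Ptprc*, and markers of endothelial cells to between 0.567 and 2.50 CPM with *Cdh5* and *Kdr* at 0. In these lists *Cd68* had 4.12 and 1.76 CPM in the parental libraries and 1.59 and 1.85 CPM in TRCs. *Vwf* had 1.42 and 0.368 CPM in the parental libraries and 0.529 and 2.45 CPM in TRCs, and neither gene was called. The epithelial list summed to between 0.453 and 1.83 CPM. The fibroblast list summed to 9.83 and 11.4 CPM in the parental libraries and to 3.10 and 5.68 CPM in TRCs, with *Col1a2* called lower and *Thy1* and *Dcn* at 2 counts or fewer in each library.

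Promoter sequences are shown for 5 of the genes, because the values below set a Sprouty gene that was higher in both TRC libraries (*Spry2*) beside one whose groups overlapped (*Spry1*), and a phosphatase near the lower limit of detection (*Dusp5*) beside an abundant one (*Dusp6*). *Etv5* is shown for the wide spread between its parental libraries. The windows run from 250 bases before to 50 bases after a RefSeq transcription start in the build GRCm38.p6, and 6 of the 10 genes had a window. Motifs were searched on both strands. Capitals mark GGAA, the core bound by ETS factors (printed as TTCC where it lies on the other strand), the longer ETS motif CCGGAA, which contains that core, and the CArG box bound by serum response factor. TGANTCA, an AP-1 motif, and TGACGTCA, a cAMP response element, were searched too and had no match in the windows of the 6 genes, where 7.81% and 1.79% of all windows held one. The shorter TGACG, within the latter, matched 1 time in *Dusp5* and in 20.8% of all windows.
*Dusp5*, chr19:53528895-53529194, plus strand: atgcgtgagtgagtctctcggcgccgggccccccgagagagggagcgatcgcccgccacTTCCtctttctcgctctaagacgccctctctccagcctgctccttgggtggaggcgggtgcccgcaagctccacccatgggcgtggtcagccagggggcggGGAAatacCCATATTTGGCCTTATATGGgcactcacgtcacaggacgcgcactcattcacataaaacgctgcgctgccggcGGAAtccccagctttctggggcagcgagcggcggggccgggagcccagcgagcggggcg
*Dusp6*, chr10:99262981-99263280, plus strand: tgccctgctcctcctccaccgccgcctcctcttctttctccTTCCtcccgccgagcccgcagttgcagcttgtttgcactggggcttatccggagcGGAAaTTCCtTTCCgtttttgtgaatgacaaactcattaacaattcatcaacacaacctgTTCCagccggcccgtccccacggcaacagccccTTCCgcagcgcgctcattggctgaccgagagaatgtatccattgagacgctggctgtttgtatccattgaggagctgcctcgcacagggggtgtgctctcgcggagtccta
*Spry1*, chr3:37639697-37639996, plus strand: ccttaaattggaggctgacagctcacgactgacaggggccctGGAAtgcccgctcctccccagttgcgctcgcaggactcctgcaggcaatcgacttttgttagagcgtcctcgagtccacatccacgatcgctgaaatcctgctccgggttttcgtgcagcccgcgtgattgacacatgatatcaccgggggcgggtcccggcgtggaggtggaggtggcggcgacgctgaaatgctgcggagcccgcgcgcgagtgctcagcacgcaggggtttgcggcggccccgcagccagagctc
*Spry2*, chr14:105896770-105897069, minus strand: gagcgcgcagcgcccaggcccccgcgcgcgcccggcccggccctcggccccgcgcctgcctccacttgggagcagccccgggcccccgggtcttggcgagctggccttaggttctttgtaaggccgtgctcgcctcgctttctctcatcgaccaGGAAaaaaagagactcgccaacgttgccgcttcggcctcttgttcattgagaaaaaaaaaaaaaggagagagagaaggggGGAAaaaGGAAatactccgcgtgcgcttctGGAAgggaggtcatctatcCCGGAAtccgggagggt
*Etv5*, chr16:22438319-22438618, minus strand: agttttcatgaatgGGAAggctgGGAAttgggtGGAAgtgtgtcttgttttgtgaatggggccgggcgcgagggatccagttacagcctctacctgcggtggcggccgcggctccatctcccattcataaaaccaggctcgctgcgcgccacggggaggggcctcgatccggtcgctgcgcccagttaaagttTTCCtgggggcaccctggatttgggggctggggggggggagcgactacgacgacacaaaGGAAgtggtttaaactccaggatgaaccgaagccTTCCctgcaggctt
The *Dusp5* window held 2 CArG boxes side by side, starting at positions −82 and −72 from the transcription start, where 1.63% of all 32851 windows held at least 1. GGAA matched 6 times in *Dusp6* and 5 times in *Spry2* but 1 time in *Spry1*. At least 1 match is found in 96.0% of all windows and at least 5 matches in 28.6%, so the core is common. The match of CCGGAA in *Spry2* began at position 34 after the start, and 14.9% of all windows held this motif. *Etv5* has another start further upstream. Its window, chr16:22439521-22439820, is not shown and had no GGAA, whereas the one shown had 6, so the number of matches depends on the start taken. *Spred1* had 5 matches of GGAA, and *Dusp4*, *Spry4*, *Etv4* and *Phlda1* are named only.

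None of the ERK feedback genes was called different between TRCs and parental cells. Of the 10 genes, 9 passed the filter on low counts, and 0 of these had an FDR under 0.05 in edgeR's exact test with Benjamini-Hochberg adjustment, while 15.9% of all 11483 genes tested were called (8.81% as higher and 7.05% as lower in TRCs). With no adjustment, 4 had a p under 0.05, *Dusp6*, *Spry2*, *Spry4* and *Etv5*, each with the higher mean in TRCs, where 28.0% of all genes tested met that limit and 14.8% met it with a higher level in TRCs. The estimated log2 fold changes were positive for 8 of the 9 genes, with a median of 0.38 and a range from −0.020 for *Spred1* to 1.14 for *Spry4*. The median over all genes tested was 0.0034. For 5 genes both TRC libraries lay above both parental libraries, for 0 they lay below, and for 4 the groups overlapped, where the shares over all genes tested were 30.2% above and 30.4% below. edgeR's quasi-likelihood test also called 0 of the 9, without and with a replicate block, where it called 9.18% and 6.84% of all genes. Under other filters and normalizations the exact test called 0 of the feedback genes against 8.52% (no filter), 15.4% (a stricter filter), 15.2% (library size only) and 15.9% (DESeq2 size factors) of all genes. DESeq2's Wald test called 1, *Spry4*, where it called 15.6% of all genes with an adjusted p. The summed level of the 10 genes was 510 and 560.4 CPM in parental replicates 1 and 3 and 658 and 682 CPM in TRC replicates 1 and 3.

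**Figure D1:**
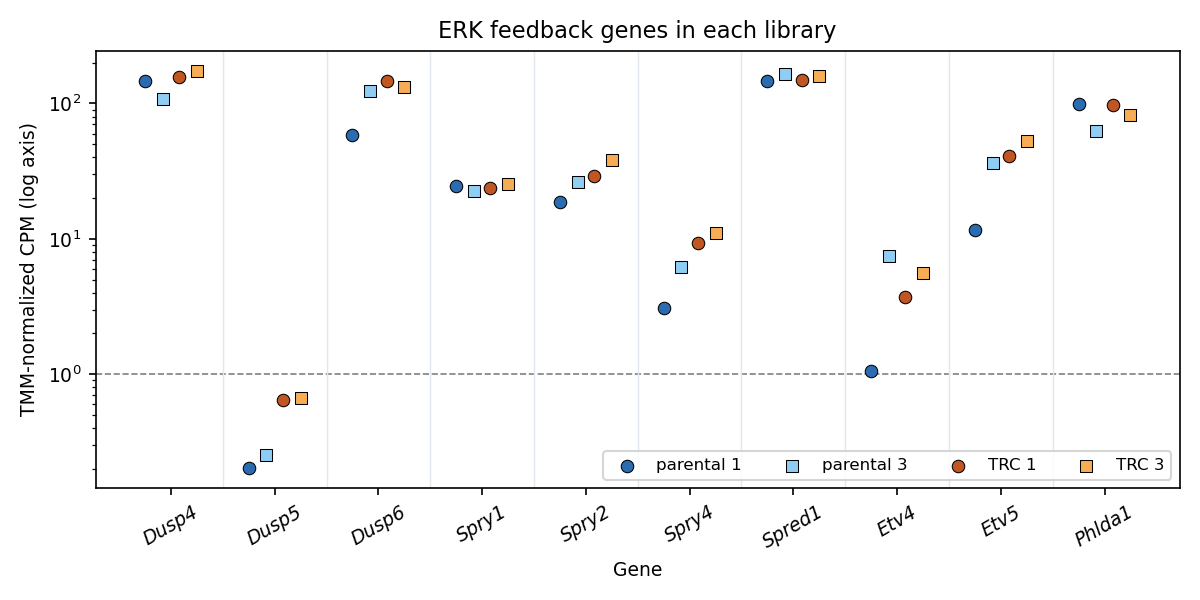
Level of each ERK feedback gene in TMM-normalized CPM on a log axis, with 1 point per library (blue, parental; orange, TRC; circles, replicate 1; squares, replicate 3) and a dashed line at 1 CPM. *Dusp5* lies below the line in all 4 libraries, and *Dusp6*, *Spry4*, *Etv4* and *Etv5* have a parental replicate 1 point well below the other 3.

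The DUSP genes held both the highest and the lowest level per kilobase of exon among the 10 genes. *Dusp4* (ENSMUSG00000031530, chromosome 8 from 34807297 to 34819894) encodes a nuclear phosphatase that acts on ERK and other MAP kinases. Its level was 147 and 108 CPM in parental replicates 1 and 3 and 157 and 175 CPM in TRC replicates 1 and 3. The TRC libraries lay above both parental libraries, but parental replicate 1 was closer to TRC replicate 1 than to parental replicate 3. Means of 128 ± 27.8 and 166 ± 12.6 CPM (SD, n = 2 each) gave a log2 fold change of 0.38 (SE 0.23, FDR = 0.31). *Dusp6* (ENSMUSG00000019960, chromosome 10 from 99263231 to 99267489) encodes the cytoplasmic phosphatase that is specific for ERK. It had 58.2 and 124 CPM in the parental libraries and 147 and 132 CPM in the TRC libraries, in the same order. Parental replicate 3 was near the TRC libraries and parental replicate 1 stood apart below. With means of 91.1 ± 46.5 and 139.7 ± 10.4 CPM (SD, n = 2 each), the log2 fold change was 0.62 (SE 0.33, FDR = 0.177).

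*Dusp5* (ENSMUSG00000034765, chromosome 19 from 53529109 to 53542431), which encodes a nuclear phosphatase specific for ERK, was the 1 gene of the 10 that did not pass the filter. Its counts were 9 in each parental library and 27 and 28 in the TRC libraries, which is 0.202 and 0.255 CPM against 0.650 and 0.673 CPM. All of these values lie above the floor of 3 counts, and the groups did not overlap. In the exact test without the filter, its log2 fold change was 1.5 with an FDR of 0.133. The annotation used here (GENCODE M21) places an antisense transcript opposite exons of *Dusp5*, a transcript still to be experimentally checked opposite *Spry1* and a lincRNA opposite *Phlda1*. The libraries are stranded, but the strand setting of the counting is not given in the sources used here, so reads of such partners cannot be told apart from those of the gene.

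The 3 Sprouty genes had log2 fold changes from 0.052 to 1.14. *Spry1* (ENSMUSG00000037211, chromosome 3 from 37639947 to 37644598), an inhibitor of receptor tyrosine kinase signaling, had 24.4 and 22.8 CPM in the parental libraries and 23.6 and 25.2 CPM in the TRC libraries, so that the groups overlapped. The log2 fold change was 0.052 (SE 0.23, FDR = 0.929), and DESeq2's 95% Wald interval ran from −0.41 to 0.51. *Spry2* (ENSMUSG00000022114, chromosome 14 from 105891947 to 105896819), a paralog with a related inhibitory role, had 18.7 and 26.2 CPM in the parental libraries and 29.0 and 38.0 CPM in the TRC libraries. Both TRC libraries were higher, and in each group replicate 3 was above replicate 1. Means of 22.4 ± 5.30 and 33.5 ± 6.39 CPM (SD, n = 2 each) gave a log2 fold change of 0.58 with an SE of 0.29 and an FDR of 0.162. The 95% Wald interval of *Spry2*, not adjusted for the number of genes, ran from 0.022 to 1.14. The difference in response between *Spry1* and *Spry2* was not tested.

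*Spry4* (ENSMUSG00000024427) was closest to the threshold. Its counts were 136 and 218 in the parental and 385 and 461 in the TRC libraries, which correspond to 3.06, 6.18, 9.26 and 11.1 CPM. Both TRC libraries lay above both parental libraries. The parental mean was 4.62 ± 2.21 CPM and the TRC mean 10.2 ± 1.29 CPM (SD, n = 2 each), and the fold change fitted by edgeR was 2.21 (log2 fold change 1.14, SE 0.42, FDR = 0.0629). DESeq2's Wald test gave an adjusted p of 0.0300 and the quasi-likelihood test an FDR of 0.107. The unadjusted 95% Wald interval of *Spry4* ran from 0.31 to 1.97. *Spred1* (ENSMUSG00000027351, chromosome 2 from 117121374 to 117182279), whose product brings the RAS-inactivating protein neurofibromin to the membrane, was at 147 and 166 CPM in the parental libraries and at 149 and 159 CPM in the TRC libraries. The TRC values fell between the parental values, and the log2 fold change was −0.020 (SE 0.20, FDR = 0.970). The 95% Wald interval from −0.40 to 0.37 was the narrowest of the 9 genes.

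The ETS factor genes had the widest spread between the parental libraries. *Etv4* (ENSMUSG00000017724, chromosome 11 from 101769742 to 101785371) had 47 counts in parental replicate 1 but 263 in parental replicate 3, and 154 and 233 in TRC replicates 1 and 3. In CPM these were 1.06 and 7.45 against 3.70 and 5.60, so both TRC libraries lay between the parental libraries. The log2 fold change of 0.13 (SE 0.73, FDR = 0.930) had a 95% Wald interval from −1.31 to 1.56, so a change of more than 2-fold in either direction lies within it. *Etv5* (ENSMUSG00000013089, chromosome 16 from 22381309 to 22439719), its close paralog, had 11.6 and 36.6 CPM in the parental libraries and 40.8 and 52.6 CPM in the TRC libraries. Here the groups did not overlap, although parental replicate 3 was much closer to TRC replicate 1 than to parental replicate 1. With means of 24.1 ± 17.7 and 46.7 ± 8.40 CPM (SD, n = 2 each), the log2 fold change was 0.95 (SE 0.44, FDR = 0.101). The unadjusted 95% Wald interval of *Etv5* ran from 0.090 to 1.82.

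*Phlda1* (ENSMUSG00000020205, chromosome 10 from 111506286 to 111508645) encodes a pleckstrin homology-like domain protein and is the most compact gene of the set, with 2360 bp from start to end. It had 98.8 and 63.1 CPM in the parental libraries and 97.3 and 82.6 CPM in the TRC libraries. The TRC values again lay between the parental values, and the log2 fold change was 0.15 (SE 0.27, FDR = 0.756). *Phlda1*, *Dusp6*, *Spry1* and *Spry2* span less than 5000 bp each, as do 11.9% of the genes tested that have a position. The median span of the genes tested was 24192 bp.

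**Figure D2:**
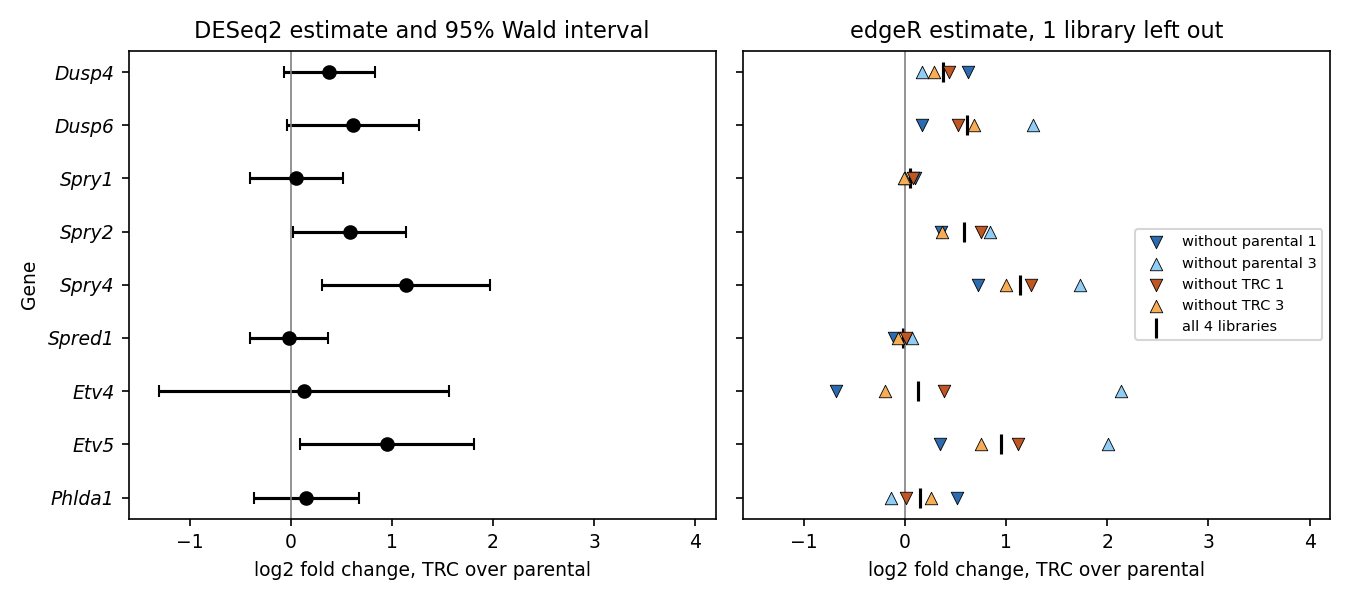
Log2 fold changes of the 9 genes tested, TRC over parental, with DESeq2's estimate and 95% Wald interval on the left and edgeR's estimate with all 4 libraries (bar) and with 1 library left out (triangles) on the right. *Etv4* and *Etv5* move to 2.13 and 2.01 without parental replicate 3, while *Spry1* and *Spred1* stay near 0.

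The calls changed with the parental library that was left out. Without parental replicate 3, 4 of the 9 genes were called in edgeR's exact test, where 7.52% of all genes tested were called and 4.35% were called higher. These were *Dusp6* (log2 fold change 1.26, FDR = 0.000525), *Spry4* (1.73, FDR = 0.0161), *Etv4* (2.13, FDR = 0.0125) and *Etv5* (2.01, FDR = 9.41e-07). Without parental replicate 1, 0 of the 9 genes were called by this test, where 16.8% of all genes tested were called. The log2 fold changes of *Dusp6*, *Spry4*, *Etv4* and *Etv5* were then 0.17, 0.72, −0.68 and 0.35. Leaving out either TRC library gave 0 of the 9 genes called, where 6.73% of all genes tested were called in each case. In these fits a group is 1 library, which is assumed to vary like the others. *Dusp4* and *Phlda1* moved the other way, from 0.17 and −0.13 without parental replicate 3 to 0.62 and 0.51 without parental replicate 1.

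The 2 parental libraries differed in most of the feedback genes, and not in 1 direction. *Spry1* and *Spred1* differed little, being 1.07-fold higher in parental replicate 1 and 1.13-fold higher in parental replicate 3. *Etv4* was 7.05-fold, *Etv5* 3.15-fold, *Dusp6* 2.13-fold, *Spry4* 2.02-fold and *Spry2* 1.40-fold higher in parental replicate 3 than in parental replicate 1, whereas *Phlda1* and *Dusp4* were 1.57-fold and 1.36-fold higher in parental replicate 1. On the log2(CPM + 0.5) scale, a difference between the parental libraries at least as large as that of *Etv4* occurred in 0.157% of the genes tested, with shares of 0.784% for *Etv5*, 2.81% for *Dusp6* and 4.83% for *Spry4*. The TRC libraries were closer to each other. For all 9 genes the parental libraries differed by more than the TRC libraries, as they did for 55.4% of all genes tested, and the median absolute difference over the 9 genes was 0.64 between the parental and 0.24 between the TRC libraries, against 0.25 and 0.21 over all genes tested. For *Spry1* these differences were nearly equal, at 0.097 between the parental and 0.093 between the TRC libraries. For 7 of the 9 genes the difference between the parental libraries exceeded that between the group means, as it did for 39.4% of all genes tested. The exceptions were *Spry2* and *Spry4*. The melanocyte gene *Tyr*, with 144 CPM in parental replicate 1 and 46.2 CPM in parental replicate 3, also differed between these libraries. So did *Ddr2*, with 521 and 199.8 CPM. *Tyr* had the widest such difference of the melanocytic markers, whose median log2 difference (replicate 1 minus replicate 3) was 0.39. *Mlana* went the other way, with 805 and 1245 CPM. The part of these genes in the spread of the feedback genes was not tested.

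**Figure D3:**
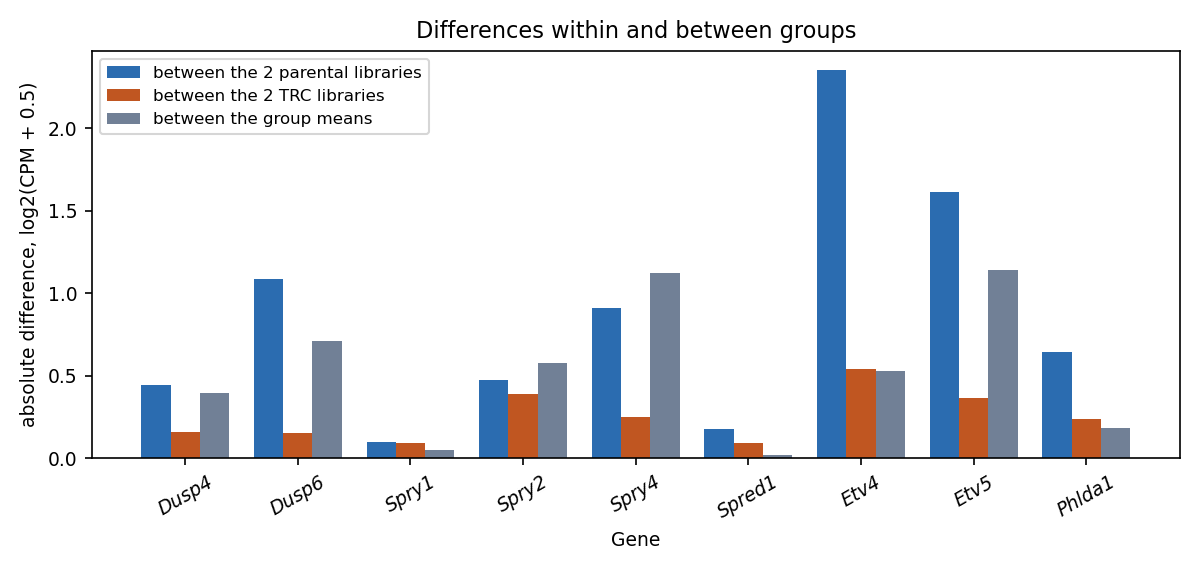
Absolute differences on the log2(CPM + 0.5) scale for the 9 genes tested, between the 2 parental libraries (blue), between the 2 TRC libraries (orange) and between the group means (grey). The blue bar is the tallest for 7 genes, and for *Spry2* and *Spry4* the grey bar is.

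Levels were compared between genes as CPM per kilobase of exon, with exon lengths from GENCODE M21. In parental cells the order was *Dusp4* at 46.6, *Phlda1* at 36.7, *Dusp6* at 29.1, *Spred1* at 23.0, *Spry2* at 10.7, *Spry1* at 8.11, *Etv5* at 5.88, *Etv4* at 1.37, *Spry4* at 0.971 and *Dusp5* at 0.0925 CPM per kilobase. In TRCs *Dusp4* was again first, at 60.6, and *Dusp5* last, at 0.267. Between them the TRC means were 44.6 for *Dusp6*, 40.8 for *Phlda1*, 11.4 for *Etv5*, 8.41 for *Spry1*, 2.14 for *Spry4* and 1.5 for *Etv4*. These 3 pairs stood in the other order by their parental means, but no change of order is shown. In parental cells *Etv5* had 2.83 and 8.92 against 8.39 and 7.83 for *Spry1*, and *Spry4* had 0.643 and 1.3 against 0.341 and 2.40 for *Etv4*, so that the parental libraries disagreed on the order of both pairs. *Dusp6* was above *Phlda1* in both TRC libraries, with 46.9 against 44.1 in replicate 1 and 42.2 against 37.4 CPM per kilobase in replicate 3. The ranges of the 2 genes overlapped there, and the parental libraries disagreed on their order. In parental cells the ranges of *Dusp4*, *Phlda1* and *Dusp6* overlapped, at 39.4 to 53.8, 28.6 to 44.8 and 18.6 to 39.6. *Dusp4* was above *Phlda1* in both parental libraries, but the place of *Dusp6* differed between them. In parental replicate 1 *Dusp6* was also below *Spred1*, at 18.6 against 21.6. In parental replicate 3 it was above *Spred1*, at 39.6 against 24.4, so these libraries disagreed on that pair too. Of all genes tested, 6.19% had a level in TRCs at or above that of *Dusp4*, and 46.7% at or above that of *Spry1*. Among the Sprouty genes the order *Spry2*, *Spry1*, *Spry4* held in all 4 libraries, and among the phosphatases *Dusp5* was the lowest in each.

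Among the closest relatives of these genes 3 were called. Of 13 paralogs, *Spry3* was not analysed here, and 10 passed the filter, with 2 called higher and 1 called lower (FDR under 0.05 in edgeR's exact test) beside 8.81% higher and 7.05% lower over all genes tested, and a median log2 fold change of −0.17. *Etv1*, the remaining PEA3-type factor, rose from 7.74 and 15.0 CPM in the parental libraries to 26.5 and 29.5 CPM in the TRC libraries, a log2 fold change of 1.31 (SE 0.35, FDR = 0.00423). Like *Etv4* and *Etv5* it was lower in parental replicate 1 than in parental replicate 3. *Spred3* rose from 8.82 and 4.14 to 18.9 and 16.5 CPM (log2 fold change 1.45, SE 0.39, FDR = 0.00640), and *Dusp16*, whose product acts mainly on JNK, fell from 103 and 76.9 to 52.0 and 62.3 CPM (log2 fold change −0.65, SE 0.24, FDR = 0.0429). These calls depended on single libraries. *Etv1* had an FDR of 0.0544 without parental replicate 1 and of 0.0982 without TRC replicate 3, *Spred3* had one of 0.124 without parental replicate 3, 0.130 without TRC replicate 1 and 0.0603 without TRC replicate 3, and *Dusp16* one of 0.264 without parental replicate 1, 0.370 without TRC replicate 1 and 0.124 without TRC replicate 3. The other paralogs tested were not called, with log2 fold changes of 1.02 for *Dusp2*, −0.073 for *Dusp7*, −0.27 for *Dusp1*, −0.64 for *Dusp8*, −0.68 for *Dusp10*, −0.037 for *Spred2* and −0.26 for *Phlda3*. *Dusp9* and *Phlda2* were below the filter. Without parental replicate 1, *Dusp2* was called higher, at 1.77.

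Other genes commonly induced by ERK went in both directions. Of 22 listed, 18 were tested, and 4 of these were called higher and 1 lower (8.81% and 7.05% over all genes tested), around a median log2 fold change of −0.25. *Fos*, an AP-1 subunit gene, rose from 1.15 and 1.62 CPM to 10.4 and 7.07 CPM (log2 fold change 2.66, SE 0.44, FDR = 1.4e-06), and *Fosb* from 0.270 and 0.340 CPM to 11.5 and 1.44 CPM (4.40, SE 0.84, FDR = 1.42e-05), with its TRC libraries far apart. Without TRC replicate 1 the log2 fold change of *Fosb* was 2.22. *Ier3*, an early response gene, rose from 37.4 and 29.5 CPM to 105 and 291 CPM (2.56, SE 0.39, FDR = 1.31e-08; 1.64 without TRC replicate 3), and *Trib2*, which encodes a pseudokinase, from 1.60 and 1.90 CPM to 11.2 and 8.22 CPM (2.47, SE 0.40, FDR = 2.41e-06). *Hmga2*, which encodes a chromatin protein, fell from 41.2 and 52.1 CPM to 18.3 and 15.4 CPM (−1.47, SE 0.25, FDR = 2.01e-06). Not called were *Ccnd1*, which encodes cyclin D1 and had a log2 fold change of −0.13 (FDR = 0.796), *Myc* at −0.46 (FDR = 0.227), *Egr1* at 0.94 (FDR = 0.240) and *Epha2* at −1.39 (FDR = 0.0648). *Fosl1* was at 3 counts or fewer in each library.

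Of the genes of the cascade itself 18 were tested and 2 were called, both higher in TRCs, where 15.9% of all genes tested were called and 8.81% were called higher, so the count is near that over all genes. The median log2 fold change of the list was 0.044. *Mapk3*, which encodes ERK1, rose from 106 and 90.2 CPM in the parental libraries to 247 and 204 CPM in the TRC libraries, a log2 fold change of 1.20 (SE 0.21, FDR = 1.74e-05). *Map2k1*, which encodes MEK1, rose from 99.4 and 108 CPM to 169.8 and 246 CPM, a log2 fold change of 1.0 (SE 0.24, FDR = 0.00144), and without TRC replicate 3 it was 0.70 with an FDR of 0.12. For neither gene did the groups overlap. *Map2k2*, which encodes MEK2, was not called, at a log2 fold change of −0.59 (FDR = 0.0664). *Braf*, *Araf*, *Nras* and *Hras* were not called either, with log2 fold changes from −0.42 for *Hras* to 0.36 for *Braf*.

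Around RAS, 3 of 18 genes tested were higher and 1 lower (8.81% and 7.05% over all genes tested), with a median log2 fold change of 0.18. *Rasgrp3*, a RAS exchange factor, rose from 109 and 144 CPM to 247 and 233 CPM (log2 fold change 0.92, FDR = 0.00213). *Frs3*, an adaptor of growth factor receptors, had a log2 fold change of 1.35 (FDR = 0.0320), and the exchange factor *Sos1* one of −0.79 (FDR = 0.0111). Each of these calls depended on single libraries. The FDR was 0.0592 for *Rasgrp3* without parental replicate 1 and 0.0561 without TRC replicate 1. Without parental replicate 3, TRC replicate 1 or TRC replicate 3, the log2 fold change was 0.96 to 1.35 for *Frs3* and −0.86 to −0.54 for *Sos1*. Neither *Frs3* nor *Sos1* was called in those fits.

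Of 32 receptor tyrosine kinase and ligand genes, 20 were tested, 2 were higher and 1 lower, a count near the 15.9% called over all genes tested, and the median was 0.12. *Met*, the receptor of hepatocyte growth factor, rose from 654 and 372 CPM to 715 and 1150 CPM (0.86, FDR = 0.0401), *Axl* from 8.50 and 2.35 CPM to 39.4 and 9.78 CPM (2.18, FDR = 0.00923), and *Kitl*, the ligand of KIT, fell from 1.33 and 1.45 CPM to 0.144 and 0.529 CPM (−2.03, FDR = 0.0124). *Egfr*, *Hgf* and *Fgf2* were at 0 counts in all 4 libraries. Without parental replicate 3 the log2 fold change was 0.51 for *Met* (FDR = 0.466), 1.53 for *Axl* (FDR = 0.170) and −1.97 for *Kitl* (FDR = 0.0573). *Met* had 0.47 (FDR = 0.498) without TRC replicate 3, and without TRC replicate 1 *Axl* had 0.83 (FDR = 0.558) and *Kitl* −1.40 (FDR = 0.315), so no call of this list held in all 4 such fits.

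Of the kinases and factors that ERK phosphorylates, 2 of 13 were higher, *Mknk2* (1.03, FDR = 0.00102) and *Rps6ka2* (0.96, FDR = 0.0101), and 1 was lower, the ETS repressor gene *Erf* (−0.91, FDR = 0.00682), with a median of 0.30. Over all genes tested 8.81% were higher and 7.05% lower. Without TRC replicate 3 none of these 3 was called by the exact test, with an FDR of 0.0711 for *Mknk2*, 0.426 for *Rps6ka2* and 0.237 for *Erf*. *Rps6ka2* was also above the threshold without parental replicate 1 (FDR = 0.0562) and without parental replicate 3 (FDR = 0.0798), and *Erf* without parental replicate 1 (FDR = 0.0821).

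Across these 6 lists 20 of 97 genes tested were called, where 15.9% of all genes tested were called, and nothing particular to the lists is read from the count. Of the 20, 5 kept an FDR under 0.05 in all 11 refits with another test, filter, normalization or set of libraries (*Ier3*, *Fos*, *Trib2*, *Hmga2* and *Mapk3*), and 14 lost it in at least 1 of the 4 fits that left out a library. The sign of all 20 was the same in each refit.

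**Figure D4:**
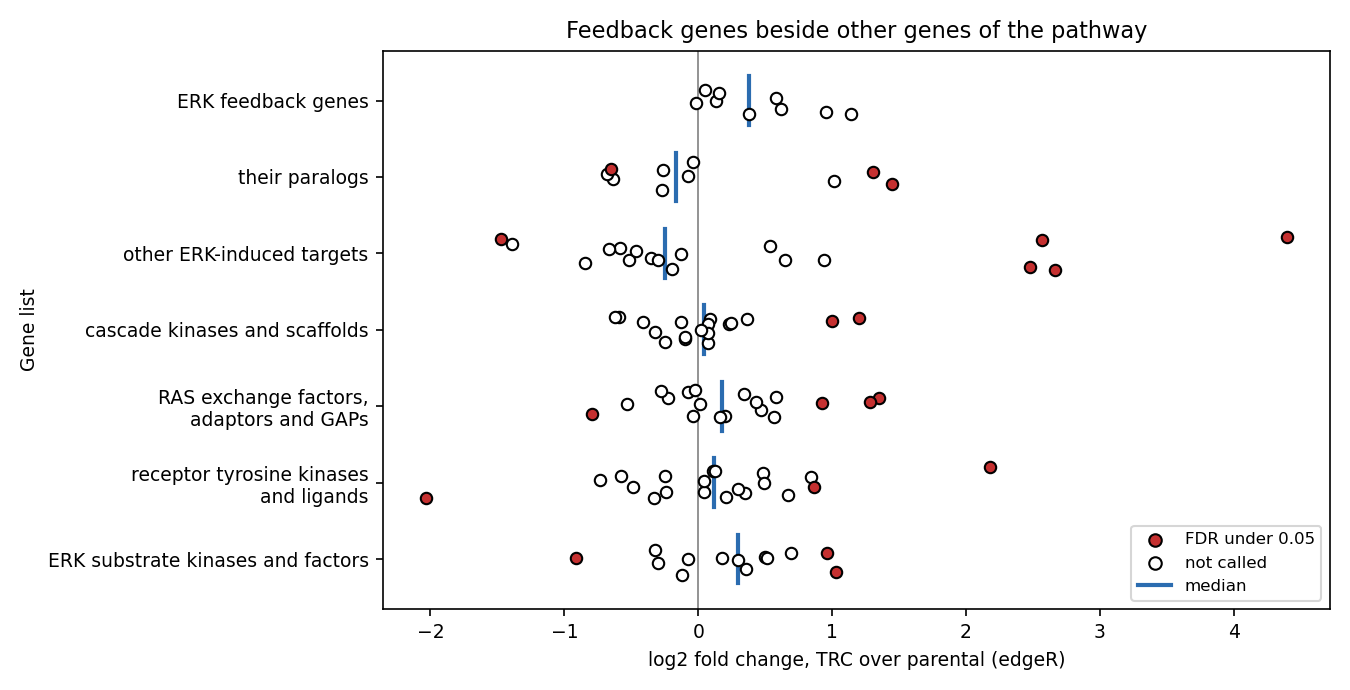
Log2 fold changes (TRC over parental, edgeR) of the ERK feedback genes and of 6 lists of related genes, with 1 point per gene tested, filled red where the FDR is under 0.05, and a blue bar at the median of each list. The 9 feedback genes lie between −0.020 and 1.14 with no filled point, and each of the other lists has 2 or more. Over all genes tested 15.9% were called, and each of the other lists holds more genes tested. Nothing particular to the feedback genes is read from this contrast.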

How the data were processed

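RNA was measured in 2 parental and 2 TRC libraries. Per the labels and the methods of the study, the authors demultiplexed single-end reads of stranded libraries with CASAVA 1.8.2, removed adapters (Trimmomatic 0.35), mapped the reads to GRCm38 (Tophat2 2.1.0, Bowtie2 2.2.6, Samtools 1.3) and counted reads per Ensembl gene with htseq-count; tool versions are those of the submitters' processing notes. The deposited values are these raw counts per gene, not normalized. The totals that name no gene, 20.2% to 29.0% of the alignments, were removed first. Most were not unique, so genes with near-identical copies can be undercounted.

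Genes under 1 CPM in at least 3 of the 4 libraries were removed, a reading of the filter in the study's methods that did not return exactly the study's number of genes (the stricter filter below is another reading). The exact test (prior count 0.125) on tagwise dispersions with TMM factors of 0.957 to 1.04 was that of edgeR 4.0.16 (R 4.3.3), with Benjamini-Hochberg adjustment over all 11483 genes tested and a threshold of 0.05. The fit has no replicate block. SE and Wald intervals came from DESeq2 1.42.0 on the same genes, and its Wald test as an alternative was run on all genes with a count, with its own filter (13101 adjusted p-values). CPM values are counts over TMM-scaled library sizes. Differences between libraries on the log2 scale used CPM plus 0.5. Floors of 3 counts describe counting error alone. With 2 libraries a group, an exact two-sided permutation test cannot go below p = 0.333 and was not run. Symbols, positions and exon lengths came from GENCODE M21 (GRCm38), with a symbol for 11398 of the genes tested, and promoter windows from RefSeq (GRCm38.p6). The fits were tested on simulated data in which all genes had the same dispersion. That setting does not cover genes with a wide spread between libraries, such as *Etv4*.

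The 10 genes, the related lists and the tests were chosen with earlier results of these data known, so no test over a list was run. Named in the text are the 10 genes, all paralogs that passed the filter, and from each related list up to 4 called genes per direction with the smallest FDR, except that some genes are not reported here. Other genes, given where they are not called or at 0, were named after their values were seen. Alternatives were a stricter filter (3 libraries at 1 CPM), no filter, DESeq2 size factors, library size only, the quasi-likelihood test (also with a replicate block), DESeq2's Wald test, plain ratios of mean CPM, and each library left out in turn.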

Additional observations from a re-analysis of the deposited data

How the results depend on the processing

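With edgeR's exact test under each other filter and normalization, and with the quasi-likelihood test, 0 of the feedback genes were called, as in the main setting. The log2 fold change was positive for 8 of the 9 genes under each normalization. DESeq2's Wald test called 1, *Spry4*, with a log2 fold change of 1.13 and an adjusted p of 0.0300. With 1 library left out, the number called ranged from 0 to 4, all of them higher, and the 4 were reached without parental replicate 3. The range of the log2 fold change over these fits was 0.17 to 0.62 for *Dusp4*, 0.17 to 1.26 for *Dusp6*, −0.0045 to 0.10 for *Spry1*, 0.36 to 0.84 for *Spry2*, 0.72 to 1.73 for *Spry4*, −0.10 to 0.071 for *Spred1*, −0.68 to 2.13 for *Etv4*, 0.35 to 2.01 for *Etv5* and −0.13 to 0.51 for *Phlda1*, so that the sign turned for *Spry1*, *Spred1*, *Etv4* and *Phlda1*. Among the paralogs it turned for *Phlda3* (−0.59 to 0.17), *Dusp1* (−0.67 to 0.28), *Dusp7* (−0.34 to 0.13) and *Spred2* (−0.40 to 0.23). The cause of these shifts was not tested, and a fit without 1 library also has fewer samples.

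Over all genes tested, the main setting called 1822 (1012 higher and 810 lower). The quasi-likelihood test called 1054 (567 higher and 487 lower), all among the 1822, and with the replicate block 785 (477 higher and 308 lower), of which 784 were among the 1822. With 1 library left out the total ranged from 773 to 1932, with 500 to 1078 higher and 269 to 854 lower. Deviations from the group means correlated weakly over genes between libraries of equal number (r = 0.027), so the numbers are not shown to pair the samples. Under the replicate block the FDR came to 0.0835 for *Spry4*, 0.0809 for *Etv5* and 0.184 for *Dusp6*, and the call of none of the 9 genes changed. The lowest counts among the feedback genes were those of *Dusp5* (9 to 28) and of *Etv4* in parental replicate 1 (47).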
